A study of Gallus gallus with 32 samples.

Results

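The sexes were compared within 1 diet: 8 male and 8 female broiler chickens fed a standard diet supplemented with comfrey, which are 16 of the 32 birds in the study. The members were chosen by their diet and sex labels alone. Each array carried RNA from the blood of 1 bird, labelled as whole blood cells and taken from clots ground in liquid nitrogen. The other 16 birds, 8 males and 8 females on the standard diet without comfrey, are separate birds in which the same sex differences were looked up. Those birds also entered the test of whether the sex difference depended on diet, and a fit of all 32 arrays. The labels call every bird a broiler and give an age of 32 in a field headed in months. The sources used here do not give the dose of comfrey or the length of feeding.

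In birds the male carries a pair of Z chromosomes, and the female carries a single Z and a W. Birds are known for balancing the output of Z between the sexes only in part, gene by gene, so many Z-linked transcripts run higher in males. W is small and gene-poor, and most of its genes are copies of genes that also lie on Z. Chicken red cells and thrombocytes keep their nuclei, so blood RNA comes from red cells and thrombocytes as well as from white cells.

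Values are log2 signals, so a difference of 1 is a doubling, and every difference is male minus female. A probe set, the unit measured for a gene, passed when its Benjamini-Hochberg adjusted p from limma over all 17894 probe sets was under 0.05. Group errors are SD over 8 birds and errors of differences are standard errors (SE). Levels over 8 birds are given as lowest, median and highest. The 16 arrays were alike in overall signal, with medians between 6.51 and 6.59 and correlations between any 2 arrays of 0.955 to 0.983. The number of arrays limits the precision.

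Between the sexes 530 of 17894 probe sets passed (2.96%), 433 higher in males (2.42%) and 97 lower (0.542%). They covered 464 different rows of values and 278 genes, since 224 of the 530 carried no gene symbol and 20 carried several. The share that passed was 38.9% of 447 Z-linked probe sets, 56.25% of 16 W-linked ones and 1.05% of 9772 autosomal ones. Groups did not overlap in 301 of the 530, a count partly set by picking them for their sex difference in the same birds. The same count over all 17894 probe sets is not given here, so the 301 cannot be read against a background share. In birds 1 to 16, 4 of each sex, 169 probe sets passed, and in birds 17 to 32, again 4 of each sex, 379 passed. All 530 had the same sign in both sets of birds, which are the birds that chose them.

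The W-linked genes checked the sex labels, with 9 of 16 W-linked probe sets lower in males and none higher. HINTW is the W-linked, amplified relative of a histidine triad protein gene. In females it stood at 12.05, 12.37 and 12.56, and in males at 5.07, 5.23 and 5.49, so every bird fell with its labelled sex. Its difference of -7.07 ± 0.085 had an adjusted p of 6.52e-20 (limma). A further 14 rows that name both HINTW and LOC100857579, which hold 3 different sets of values, passed with differences from -7.52 to -7.00. The source of the low signal in males, which carry no W, was not tested.

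Other W-linked genes with a known partner on Z followed the same order with smaller gaps. UBAP2L2, a ubiquitin-associated protein gene, was at 8.39, 8.57 and 8.85 in females and at 4.52, 4.99 and 5.88 in males, a difference of -3.51 ± 0.18 (limma adjusted p 2.96e-10). ATP5F1AW, which encodes the alpha subunit of the mitochondrial ATP synthase, was at 7.03, 7.32 and 7.75 in females and at 4.75, 5.60 and 5.90 in males, a difference of -1.81 ± 0.14 (limma adjusted p 1.35e-07). In both genes every female lay above every male. LOC430766 differed by -6.44 ± 0.23. The 4 probe sets of LOC427025 differed by -6.04, -5.42, -4.44 and -2.73, with female medians of 10.14, 8.32, 6.34 and 5.73. The size of a W-linked gap thus differed widely between probe sets of 1 gene, and the reason was not tested.

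The microRNA gene MIR7B had the lowest female level of the W-linked genes that passed. It was at 4.79, 4.98 and 5.60 in females and at 2.72, 3.71 and 4.68 in males, a difference of -1.29 ± 0.23 (limma adjusted p 0.00216), again without overlap. The female median of MIR7B lay below the HINTW signal of males (5.07 to 5.49), so its level alone does not show that it was expressed. Another gene of the same microRNA family, MIR7-1 on Z, ran the opposite way at 6.51, 6.94 and 7.21 in females and 7.10, 7.58 and 7.81 in males, with 7 of 8 males above every female. Its difference was 0.66 ± 0.12 (limma adjusted p 0.00277), and it was chosen after its values were seen. Copies of a gene on Z and W are alike in sequence, so a probe set made for one may also bind the other, which was not tested.

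The other 7 W-linked probe sets did not pass. LOC426220 was at -0.17 ± 0.11, ST8SIA3L at -0.12 ± 0.13, LOC426615 at -0.046 ± 0.11 and LOC425347 at 0.038 ± 0.11. NEDD4L, placed on W by the gene table, was at 0.094 ± 0.099, MBD2, a reader of methylated DNA, at 0.17 ± 0.13 and LOC427010 at 0.22 ± 0.40. Levels of all 7 overlapped between the sexes. For ST8SIA3L, LOC425347 and LOC427010 the female medians were under 4, below the HINTW signal of males, so their readings do not show that these genes were expressed in either sex. The placement on W comes from the newer assembly GRCg7b, while the array was designed earlier.

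**Figure D1:**
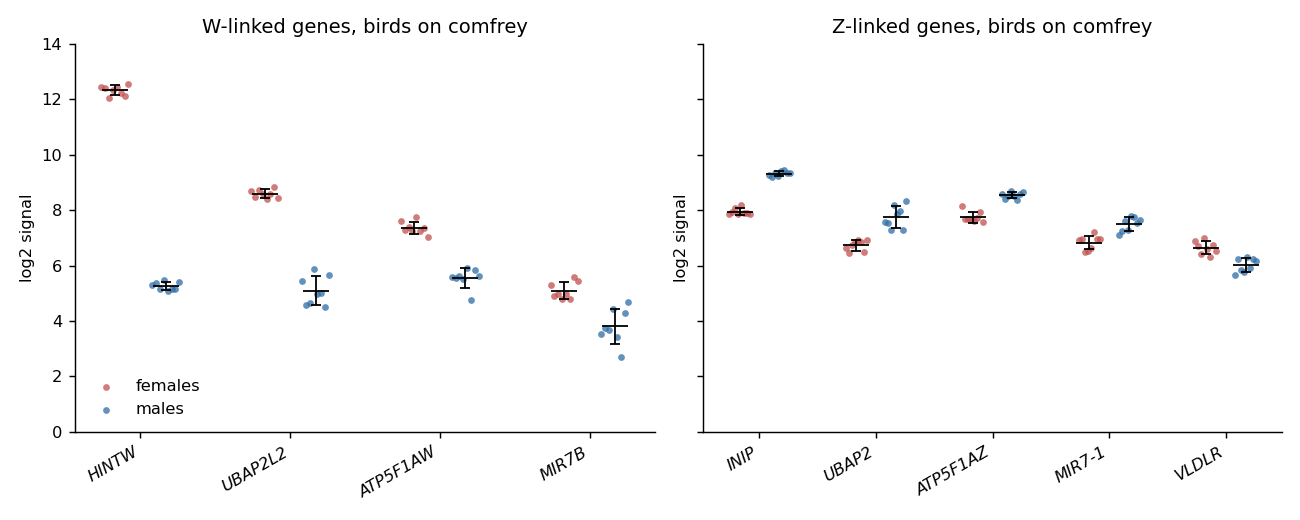
Log2 signal of 4 W-linked genes (left) and 5 Z-linked genes (right) in each of 8 females (red) and 8 males (blue) on comfrey, with the group mean and SD in black. HINTW lies near 12.3 in females and 5.3 in males, while INIP, UBAP2, ATP5F1AZ and MIR7-1 lie higher in males and VLDLR lower.

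On Z, 171 probe sets were higher in males and 3 lower. Among the 204 Z-linked probe sets at least as bright as the median probe set of all (mean log2 signal 6.54), 195 had a positive difference and 150 passed, all higher in males. Their median difference was 0.58, a 1.49-fold excess, with a middle range from 0.42 to 0.74 and a median SE of 0.091. The 5050 autosomal probe sets of like brightness had a median of 0.0056. A full doubling was uncommon: 49 of 204 lay over 0.75, 131 between 0.25 and 0.75 and 24 under 0.25. For 167 of the 204 the difference plus 2 SE stayed under 1. The 243 dimmer Z-linked probe sets had a median of 0.0071, and 21 of them passed as higher in males.

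Per bird, the mean signal of the 204 brighter Z-linked probe sets minus that of the brighter autosomal ones was -0.27 ± 0.050 in females and 0.28 ± 0.047 in males (SD, n = 8). Females ran from -0.34 to -0.19 and males from 0.21 to 0.36, so the sexes were far apart with no bird between them. In control birds the same measure was -0.28 ± 0.057 in females and 0.23 ± 0.031 in males (SD, n = 8). RMA makes signals alike in distribution between arrays and can compress large ratios, and its effect on these values was not tested.

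**Figure D2:**
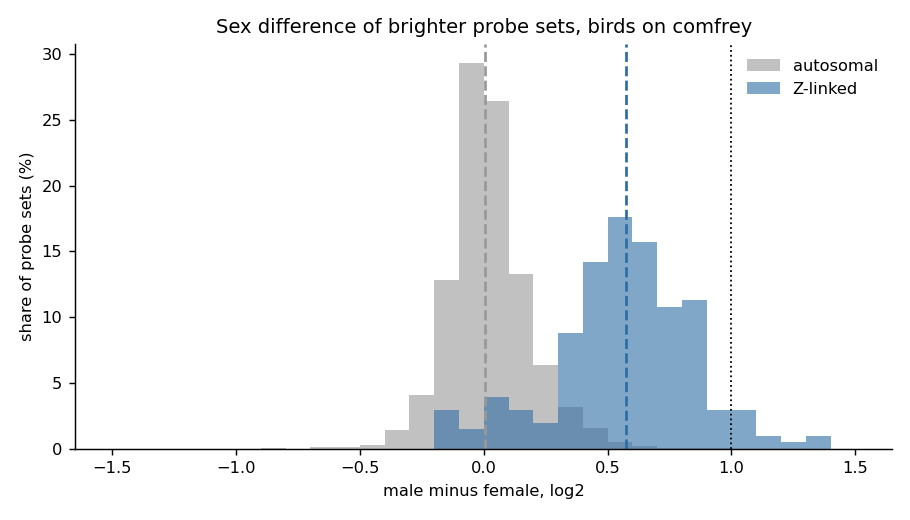
Share of brighter probe sets, in percent, by male minus female log2 difference in birds on comfrey, for 204 Z-linked (blue) and 5050 autosomal probe sets (grey). Dashed lines mark the medians, 0.58 and 0.0056, and the dotted line at 1 marks a doubling.

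The largest excesses in males on Z sat at or a little over a doubling. INIP, a subunit of a complex that binds single-stranded DNA, was at 7.85, 7.89 and 8.18 in females and at 9.20, 9.33 and 9.45 in males. That is a difference of 1.37 ± 0.062, or 2.59-fold (limma adjusted p 3.89e-11). PTCD2, which acts in the maturation of mitochondrial RNA, was at 6.13, 6.39 and 6.58 in females and at 7.59, 7.70 and 8.08 in males, 1.35 ± 0.084 apart. FAM174A followed at 1.22 ± 0.11. In these 3 genes the lowest male stood over the highest female.

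COX7C, a subunit of cytochrome c oxidase, differed by 1.11 ± 0.089, and ACAA2, the thiolase that ends each round of mitochondrial fatty acid oxidation, by 1.07 ± 0.099. MRPS36, named for the small subunit of the mitochondrial ribosome, differed by 1.02 ± 0.098 and the ribosomal protein gene RPL17 by 1.02 ± 0.11. CETN3, a centrin of the centrosome, was at 1.06 ± 0.12 and UBAP2 at 1.02 ± 0.15. The UBAP2 call was lost with all 32 arrays sharing an estimate of spread (limma adjusted p 0.051). On control UBAP2 was at 0.68 ± 0.37 and did not pass (limma adjusted p 0.507). Adjusted p lay between 3.89e-11 and 0.0455 over the 10 genes named in this direction (limma), and in 9 of the 10 the sexes did not overlap. The exception was SNCAIP, which binds alpha-synuclein, at 1.02 ± 0.26 with 5 of 8 males above every female. Its call was lost in 12 of 16 repeats that left out a single bird.

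Z-linked genes lower in males were few. LOC427353 was at 6.01, 6.46 and 6.83 in females and at 3.17, 3.89 and 4.09 in males, a difference of -2.70 ± 0.14 (limma adjusted p 4.54e-10). The placement of LOC427353 on Z comes from GRCg7b, and whether its probe set also binds a W-linked copy was not tested. VLDLR, the lipoprotein receptor that hens use to load yolk into the oocyte, was at 6.30, 6.66 and 7.00 in females and at 5.65, 6.03 and 6.32 in males. Its difference was -0.63 ± 0.12 (limma adjusted p 0.00303), with 7 of 8 males below every female. MCCC2, a subunit of an enzyme of leucine breakdown, was at 6.18, 6.45 and 6.69 in females and at 5.74, 5.98 and 6.14 in males, -0.47 ± 0.084 apart (limma adjusted p 0.00214). All 3 also passed in control birds, at -2.45, -0.66 and -0.81.

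Partners of W-linked genes were among the Z-linked genes with a male excess. Of 25 listed, 12 were measured, 11 of them placed on Z, and 9 of the 11 were higher in males, with a median of 0.79. Of the 11, 10 were among the brighter Z-linked probe sets, of which 73.5% passed in this direction, so the count of partners lay near that share. BTF3, a factor of transcription and nascent chain handling, was at 0.96 ± 0.091 and RASA1, a brake on RAS, at 0.92 ± 0.091. TXNL1, a thioredoxin-like protein of the proteasome, was at 0.80 ± 0.057 and ZSWIM6 at 0.65 ± 0.066. ATP5F1AZ was at 7.59, 7.67 and 8.16 in females and at 8.36, 8.55 and 8.70 in males, 0.79 ± 0.084 apart. The males thus lay higher for the Z copy of this ATP synthase gene, and the females for the W copy. GOLPH3, of the Golgi, and SUB1, a coactivator of transcription, were lower in the order at 0.48 ± 0.071 and 0.47 ± 0.069. MIER3 at 0.32 ± 0.19 and ZNF532 at -0.07 ± 0.22 did not pass.

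Z-linked genes of immunity and growth, 24 measured of 42 listed, were mixed: 4 were higher in males, VLDLR was lower, and the median was 0.078. Over all Z-linked probe sets 38.3% were higher in males, and 8 of these 24 genes were among the brighter ones. ERAP1, which trims peptides for class I molecules, differed by 0.77 ± 0.074 and the co-chaperone DNAJA1 by 0.66 ± 0.12. PIK3R1, a regulatory subunit of phosphoinositide 3-kinase, differed by 0.57 ± 0.13. JAK2, the kinase of growth hormone and cytokine receptors, was among the brightest at 12.57, 12.68 and 12.77 in females and 12.80, 12.87 and 13.01 in males. Its difference of 0.23 ± 0.054 was small, yet no male overlapped a female (limma adjusted p 0.0238), and its call held in 12 of 16 repeats that left out a single bird. FECH, which inserts iron into haem, differed by 0.42 ± 0.071 (limma adjusted p 0.00112) and was the only erythroid list member to pass. The cytokine receptor IL7R, at 0.48 ± 0.18, did not pass (limma adjusted p 0.246). DMRT1, the testis-determining gene of birds, was at -0.10 ± 0.066 with overlapping sexes (limma adjusted p 0.586), named after its values were seen.

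The same differences were then looked up in the 16 control birds, which share no bird with the comfrey comparison. There 388 of 17894 probe sets passed (2.17%). All 174 Z-linked and all 9 W-linked probe sets that passed on comfrey had the same sign on control, and 136 and 8 of them also passed there. MIR7B was the W-linked exception at -0.70 ± 0.22 (limma adjusted p 0.159). The brighter Z-linked median was 0.56 on control against 0.58 on comfrey. Of 103 autosomal probe sets that passed on comfrey, 83 had the same sign on control (80.6%, against 57.3% of all autosomal ones) but only 5 also passed. The 80 higher in males had a median of 0.17 on control against 0.45 on comfrey. The 23 lower in males had a median of -0.12 on control against -0.39 on comfrey. Picking them by their size on comfrey tilts that contrast.

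**Figure D3:**
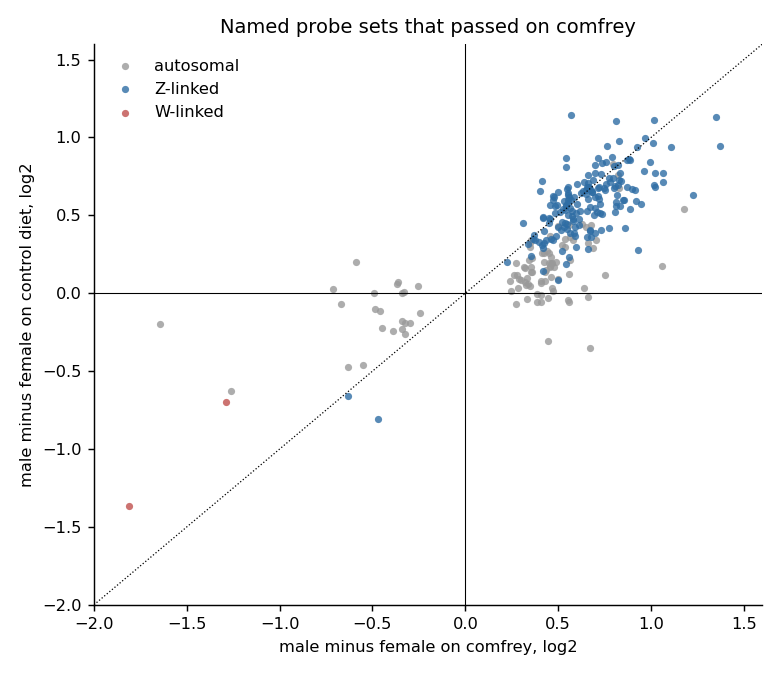
Male minus female log2 difference on comfrey (x axis) and on control diet (y axis) for single-symbol probe sets that passed on comfrey, coloured by chromosome. The dotted line marks equal values, and 8 strongly female-biased probe sets lie outside the axes, which run from -2 to 1.6. Z-linked points lie along the line, while autosomal points lie closer to 0 on control.

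On autosomes, 80 of 9772 probe sets were higher in males (0.819%) and 23 lower (0.235%), each from a different gene. Of the 80, 68 were among the 5050 brighter autosomal probe sets, and of the 23, 14 were. Differences ran from 0.24 to 1.18 among the 80 and from -1.64 to -0.24 among the 23. The sexes did not overlap in 17 of the 103, which were likewise picked for their difference in these birds. The same count over all 9772 is not given here either, so the 17 cannot be read against a background share. Fitted within birds 1 to 16 alone the autosomal count was 5, and within birds 17 to 32 it was 48. The count of 103 became 63 without comfrey female replicate 2, 66 without comfrey female replicate 6 and 67 without comfrey male replicate 7.

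NEFL, the light neurofilament chain, had the largest autosomal excess in males. It was at 6.13, 6.51 and 7.08 in females and at 7.23, 7.73 and 8.15 in males, a difference of 1.18 ± 0.17, or 2.26-fold (limma adjusted p 0.000194). Every male lay above every female, and on control diet the difference was 0.54 ± 0.21 and did not pass. LOC424473 was at 1.06 ± 0.22, with 7 of 8 males above every female, and at 0.17 on control.

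SEC61A2, BAG3 and AHSA2 were the named rises that also passed on control, at 0.68, 0.76 and 0.44. BAG3, a co-chaperone of HSP70, was at 7.12, 7.34 and 7.57 in females and at 7.38, 8.15 and 8.98 in males, 0.82 ± 0.16 apart (limma adjusted p 0.00411). SEC61A2, a channel subunit for proteins entering the endoplasmic reticulum, was at 5.80, 6.46 and 6.99 in females and at 6.66, 7.38 and 7.51 in males, 0.83 ± 0.16 apart (limma adjusted p 0.00482). AHSA2, related to an activator of HSP90, was at 0.68 ± 0.17. Its call held in 5 of the 16 repeats that left out a single bird.

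SLC40A1, ferroportin, which exports iron from cells, was at 9.03, 9.53 and 9.97 in females and at 9.90, 10.11 and 10.35 in males, 0.63 ± 0.12 apart (limma adjusted p 0.00388). It was 0.45 ± 0.12 on control (limma adjusted p 0.0747). TLR1B, a Toll-like receptor for bacterial lipoproteins, was at 7.63, 8.28 and 8.50 in females and at 8.49, 8.84 and 8.99 in males, 0.65 ± 0.13 apart (limma adjusted p 0.0069), and both of its probe sets were positive. In each of these genes 6 of 8 males lay above every female.

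LSM5, of the ring that binds the ends of small RNAs, was at 0.75 ± 0.16, TPRKB, of a complex that modifies transfer RNA, at 0.71 ± 0.17 and SUV39H2, a histone methyltransferase of heterochromatin, at 0.66 ± 0.16. RWDD1, at 0.69 ± 0.13, was the other named rise besides NEFL without overlap between the sexes. WDFY2, CCDC93, LOC417551 and the docking protein gene GAB1 lay between 0.64 and 0.80. On control, 13 of the 15 named rises were positive, and the exceptions were LOC417551 at -0.35 and SUV39H2 at -0.026.

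Autosomal genes lower in males were led by ADAMTSL5 and XK, both with a wide spread. ADAMTSL5 was at 3.38, 5.27 and 5.80 in females and at 1.86, 3.65 and 4.71 in males, -1.64 ± 0.42 apart (limma adjusted p 0.0417), with overlapping sexes and dim signals. The ADAMTSL5 call held in 4 of 16 repeats that left out a single bird. It was lost with all 32 arrays (limma adjusted p 0.117), with bird number (0.0584) and with quantile normalization repeated (0.0533). On control the ADAMTSL5 difference was -0.20 ± 0.60. XK, a red cell membrane protein that partners the Kell antigen, was at 8.52, 8.86 and 9.63 in females and at 6.46, 7.56 and 9.05 in males. Its difference was -1.26 ± 0.30 (limma adjusted p 0.0225), with 7 of 8 males below every female, and it was -0.63 ± 0.25 on control without passing.

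SNX19, a sorting nexin, was at 5.87, 6.26 and 6.65 in females and at 5.22, 5.53 and 5.81 in males, -0.71 ± 0.11 apart (limma adjusted p 0.000587). The sexes did not overlap on comfrey, while on control the difference was 0.030 ± 0.19. WAPL, which releases cohesin from chromosomes, was at 8.44, 8.55 and 8.88 in females and at 7.55, 8.09 and 8.33 in males, -0.63 ± 0.13 apart (limma adjusted p 0.00636). It was the only 1 of the 15 named falls that also passed on control, at -0.47 ± 0.12. ZDHHC20, an enzyme that adds palmitate to proteins, differed by -0.46 ± 0.11 and also did not overlap.

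Of the other named falls, PIK3R6, a regulatory subunit of the leukocyte phosphoinositide 3-kinase, was at -0.67 ± 0.15, the deubiquitinase USP25 at -0.59 ± 0.15 and the galanin receptor GALR3 at -0.55 ± 0.10. ADA, adenosine deaminase of purine breakdown, was bright at 11.32, 11.42 and 11.66 in females and 10.91, 11.11 and 11.37 in males, -0.34 ± 0.073 apart (limma adjusted p 0.0107). TMEM88B, MOG and KLHL38 lay between -0.49 and -0.37. The microRNA genes MIR375, MIR1668 and MIR1774 lay at -0.45, -0.39 and -0.36. On control, 10 of the 15 named falls were negative. Besides SNX19, the exceptions were USP25 at 0.20, TMEM88B at 0.0041, KLHL38 at 0.062 and MIR1774 at 0.075. Among all 400 probe sets of microRNA genes, 5 passed as lower in males and 2 as higher, where over all probe sets 0.542% were lower and 2.42% higher. Those 2 were MIR7-1 and MIR2131, both on Z, and they were named after their values were seen.

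Leaving out single birds touched many of these autosomal calls. Of the 15 named rises, 8 passed in all 16 repeats that left out a single bird, and of the 15 named falls 7 did. Besides AHSA2 and ADAMTSL5, the calls least often held were WDFY2 and USP25 (5 of 16), GAB1, MOG and MIR1774 (4 of 16) and KLHL38 (3 of 16). With bird number as a covariate 14 and 12 passed, and with all 32 arrays sharing an estimate of spread 13 and 11 passed. Those lost with all 32 arrays were WDFY2, GAB1, ADAMTSL5, PIK3R6, USP25 and ZDHHC20 (limma adjusted p 0.0614, 0.115, 0.117, 0.374, 0.149 and 0.066). No named gene that passed turned its sign in any of these fits, which reuse the birds that chose the genes.

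**Figure D4:**
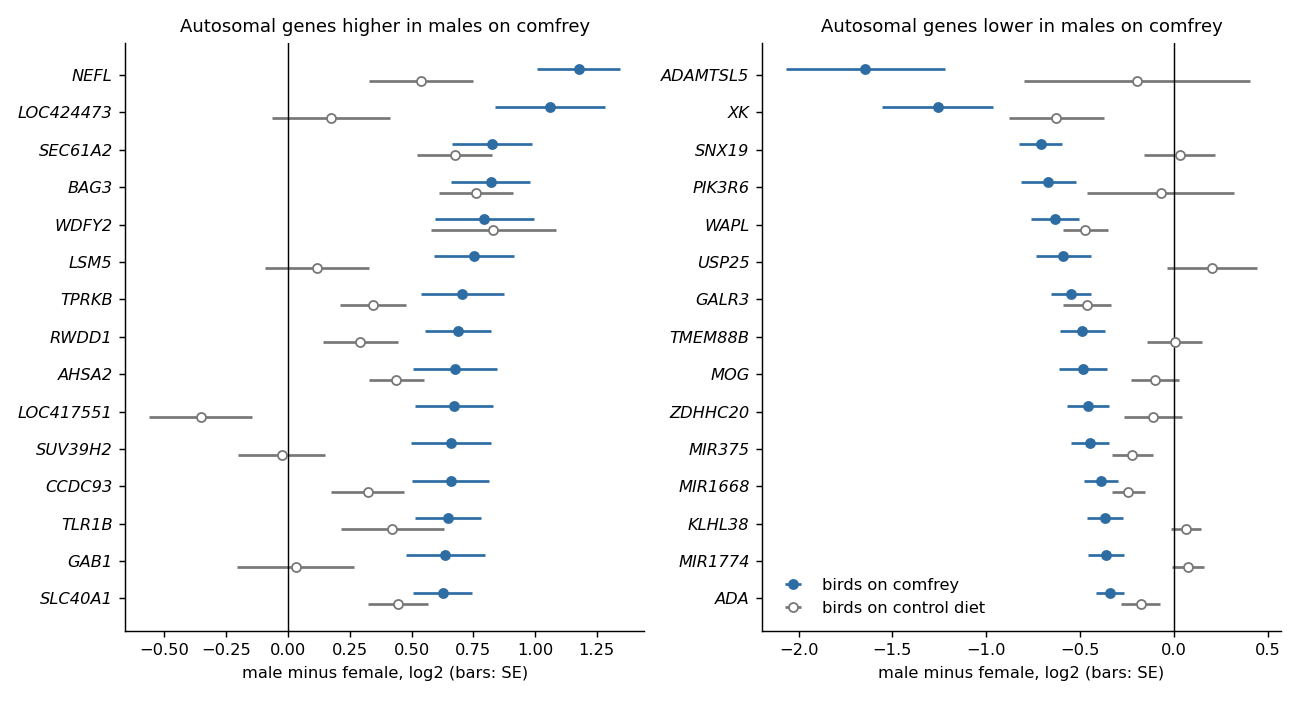
Male minus female log2 difference with SE for the 15 autosomal genes with the largest excess in males (left) and the 15 with the largest excess in females (right) among those that passed on comfrey. Filled points are birds on comfrey and open points birds on control diet, where SEC61A2, BAG3, AHSA2 and WAPL also passed.

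Of 66 listed ribosomal protein genes, which encode the proteins of the cytoplasmic ribosome, 29 were measured. The measured genes were mostly higher in males on comfrey by small amounts, and 4 of 29 passed, 3 of them on Z. Of 29 measured, 28 were higher on average in males, and the median was 0.27 against -0.024 over all probe sets. Signals of this list were bright, with a median of 10.21, and the 5050 brighter autosomal probe sets had a median difference of 0.0056. The 3 Z-linked members all passed: RPL17, RPS23 at 0.84 ± 0.082 and RPL37 at 0.67 ± 0.065. Of 26 autosomal members, 25 were positive with a median of 0.25, 1 passed (0.819% of all autosomal probe sets did in this direction), and 14 had an unadjusted p under 0.05, against 10.8% of all autosomal probe sets. The 1 was RPL23A, at 9.90, 10.20 and 10.36 in females and 10.32, 10.61 and 10.79 in males, 0.45 ± 0.080 apart (limma adjusted p 0.00174).

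The autosomal ribosomal median was 0.29 in birds 1 to 16, 0.17 in birds 17 to 32, and 0.18 to 0.28 when single birds were left out. It stayed at 0.25 when arrays were centred on autosomal probe sets or quantile-normalized again. The mean of the 26 genes per bird was 10.08 ± 0.15 in females and 10.30 ± 0.17 in males (SD, n = 8), with overlapping ranges of 9.87 to 10.28 and 10.06 to 10.65. On control diet 15 of 26 were positive with a median of 0.028. The sex difference was larger on comfrey with an unadjusted p under 0.05 in 5 of 29 genes. Over all 17894 probe sets 1020 had such a p, in either direction. None of the 29 genes passed (limma, lowest adjusted p 0.858), so a difference between diets was not shown.

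**Figure D5:**
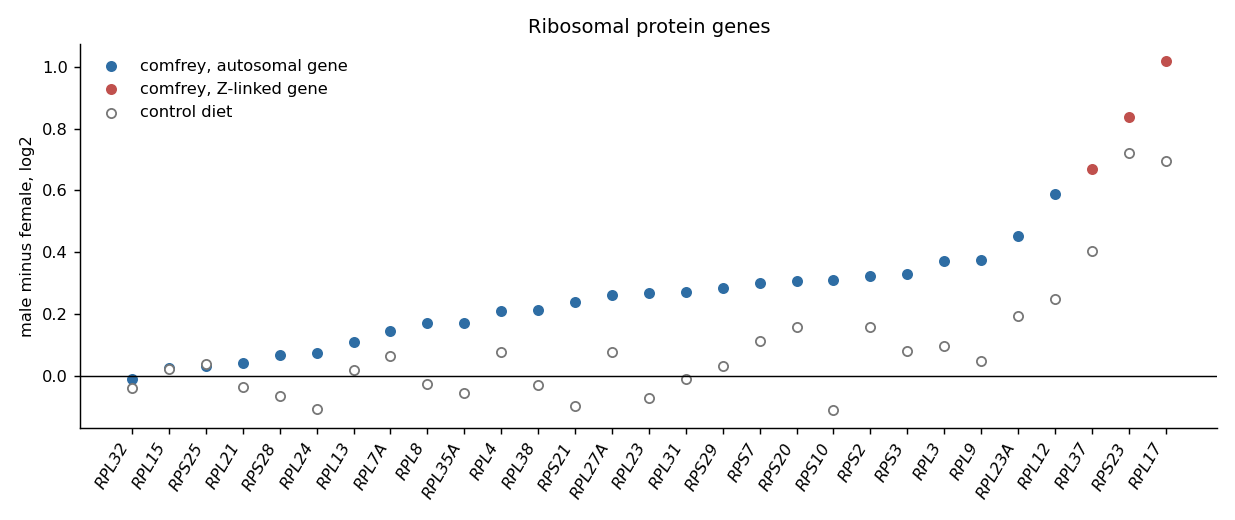
Male minus female log2 difference of 29 ribosomal protein genes in birds on comfrey (blue for autosomal, red for Z-linked) and on control diet (open points), in the order of the comfrey values. On comfrey 28 of 29 lie above 0, and on control the autosomal members scatter around 0.

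Heat shock and folding genes, 23 measured, gave 3 genes higher in males and none lower. Of the 3, 2 were among the 22 autosomal members, and over all autosomal probe sets 0.819% passed in this direction. Besides BAG3 and the Z-linked DNAJA1 these included HSPA5, the chief chaperone of the endoplasmic reticulum, at 9.60, 10.09 and 10.33 in females and 10.20, 10.41 and 10.78 in males, 0.41 ± 0.11 apart (limma adjusted p 0.0401). The HSPA5 call held in 6 of 16 repeats that left out a single bird and was lost with all 32 arrays (limma adjusted p 0.0537), with bird number (0.0512) and with centred arrays (0.0564). HSPH1, at 0.47 ± 0.17, did not pass. The median of the 22 autosomal members of the list was 0.024, against -0.019 over all autosomal probe sets and 0.0056 over the brighter ones. Signals of this list were mostly bright, with a median of 10.24.

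In the glutathione and antioxidant list, 1 of 29 measured genes passed, near the 2.96% of all probe sets that did. None of its 27 autosomal members passed. SELENOP1, the selenium carrier, is on Z and stood at 8.03, 8.48 and 8.77 in females and at 8.98, 9.33 and 9.66 in males, 0.93 ± 0.12 apart (limma adjusted p 6.14e-05). GSTK1, a mitochondrial glutathione transferase, was at 1.02 ± 0.40 with wide spreads and did not pass (limma adjusted p 0.26). GPX4, which protects membranes from lipid peroxides, was at 0.34 ± 0.12 on comfrey and -0.33 ± 0.20 on control, and passed in neither.

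Of 26 measured steroid and growth hormone genes, the Z-linked JAK2 alone passed, near the 2.96% of all probe sets that did. The 23 autosomal members had a median of -0.058, with 6 positive. GREB1, an oestrogen-responsive gene in human cells, was at 0.54 ± 0.24, the yolk lipoprotein gene APOV1 at -0.53 ± 0.24 and SPIA4 at -0.27 ± 0.084, none of which passed (limma adjusted p 0.346, 0.349 and 0.112). Signals of this list were mostly dim, with a median of 5.09.

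The blood cell marker lists held no autosomal gene that passed, which depends on the genes listed. XK, the red cell membrane gene at -1.26, passed but was not on the erythroid list. Over all 9772 autosomal probe sets only 1.05% passed, so lists this short could well hold none. The globin genes HBAD and HBA1, the defining genes of red cells, read 13.69 to 13.97 and 13.60 to 13.80, at the top of the range of these arrays, where a difference could be hidden, and they were named after their values were seen. The mean level of the 18 autosomal erythroid genes was 10.15 to 10.44 in females and 10.19 to 10.46 in males. For 18 autosomal thrombocyte genes it was 6.99 to 7.50 in females and 6.80 to 7.91 in males, with a median difference of 0.20 and GP1BB at 0.35 ± 0.19. The thrombocyte median was 9.0e-05 in birds 1 to 16 and 0.42 in birds 17 to 32, and it was 0.31, 0.12 and 0.13 without comfrey male replicates 4, 5 and 7. For 11 heterophil genes it was 6.25 to 7.29 and 6.66 to 7.22, with 10 of 11 positive, a median of 0.22 (0.48 in birds 1 to 16 and 0.031 in birds 17 to 32) and CXCR1 at 0.30 ± 0.12. These ranges overlapped between the sexes, and the part of cell makeup in the autosomal differences was not tested. In blood RNA, fewer cells of a type and less RNA per cell cannot be told apart.

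White cell and immune lists were likewise without an autosomal call, where 1.05% of all autosomal probe sets passed. The probe sets of the leukocyte gene PIK3R6 and the Toll-like receptor gene TLR1B that passed were not among those counted for these lists. The median difference was 0.036 over 15 T cell genes, -0.10 over 14 B cell genes, -0.061 over 13 monocyte genes and -0.10 over 7 autosomal cytotoxic genes. Between birds 1 to 16 and birds 17 to 32 the sign of the median turned for T cell genes (-0.032 and 0.063), monocyte genes (0.12 and -0.32), cytotoxic genes (-0.099 and 0.21) and interferon response genes (0.13 and -0.035). It also turned for antigen presentation genes (0.067 and -0.11) and cytokine genes (0.014 and -0.020). XCL1, a chemokine of cytotoxic lymphocytes, was at 0.92 ± 0.28 (limma adjusted p 0.103). Interferon response genes had a median of 0.079 over 24 genes (0.51 in control birds, where none passed), and their mean per bird ran from 9.15 to 9.47 in females and from 8.98 to 10.32 in males. Without single birds the interferon median ran from -0.055, without comfrey male replicate 3, to 0.13. The T cell median turned to -0.0031 and -0.037 without comfrey male replicates 4 and 7. The 12 autosomal antigen presentation genes had a median of 0.0075, 36 autosomal cytokine and receptor genes -0.032 and 20 cell cycle genes 0.034. TNFSF15, a cytokine of the TNF family, came nearest among cytokines at -0.32 ± 0.094 (limma adjusted p 0.0939).

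Whether the sex difference itself depended on diet was tested with all 32 birds, and 0 of 17894 probe sets passed (0%, limma, lowest adjusted p 0.434). Before adjustment 1020 had a p under 0.05. None of the 5 named genes with the smallest unadjusted p passed, and each had an adjusted p of 0.488. SELENOP1 differed between the sexes by 0.93 on comfrey and 0.28 on control, 0.65 ± 0.16 apart. CACNA1H, which encodes a voltage-gated calcium channel, was at 4.25, 4.69 and 5.04 in comfrey females and 4.78, 5.11 and 5.38 in comfrey males, 0.44 ± 0.12 apart (limma adjusted p 0.0453), against -0.31 on control. The comfrey call of CACNA1H held in 4 of 16 repeats that left out a single bird and was lost with all 32 arrays (limma adjusted p 0.0565). CUL4A, a ubiquitin ligase scaffold, was at 0.91 and -1.0 on the same diets. The endosomal gene WASHC4 was at 0.56 and -0.51, and PCCB, of propionate breakdown, at 0.17 and -0.30.

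Among Z-linked genes, INIP and FAM174A had sex differences of 1.37 and 1.22 on comfrey against 0.94 and 0.63 on control, and neither contrast passed (limma adjusted p 0.80 and 0.858). Of the 204 brighter Z-linked probe sets, 118 had the larger difference on comfrey. An unadjusted p under 0.05 for the contrast of diets was seen in 18, of which 17 were larger on comfrey. Over all 17894 probe sets 1020 had such a p, and none passed. Of the 243 dimmer Z-linked probe sets, 112 had the larger difference on comfrey, and 10 had such a p, 7 of them larger on comfrey. Brightness was judged on the comfrey arrays alone, and a difference between diets was not shown.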

How the data were processed

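RNA from 1 blood sample per bird was hybridised to 1 chicken Affymetrix array each. The authors' deposited table holds log2 values, and per the submitters' processing notes GCOS 1.1.1 and RMA were used. RMA corrects background, equalises the distribution between arrays and summarises probes per probe set. The sources used here name no genome build. Leaving out 2910 of 20804 rows, which held no value in any array, left 17894, of which 824 repeat the values of an earlier row.

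Birds were grouped by the diet and sex in their labels, and every one of the 8 birds of a group is a separate bird. Male was compared with female in the 16 comfrey arrays alone with limma 3.58.1 (R 4.3.3, lmFit and eBayes, no covariates), with Benjamini-Hochberg adjustment over all rows. Control birds were fitted in the same way, and the interaction of sex and diet was fitted over all 32 arrays. Summaries used Python 3.11.15 with pandas 2.3.3 and numpy 2.4.6, and plots matplotlib 3.10.9. The scripts were tested on simulated data.

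Genes were named through RefSeq's table of assembly GRCg7b, used for names and chromosomes only: 9770 single-symbol probe sets matched by gene ID, 474 by symbol, 15 by an older symbol and 5 not at all. A further 7448 carry no symbol and 182 carry several, and their chromosome is not given here. The named genes are all W-linked probe sets, the 10 largest rises and up to 5 largest falls on Z, the 15 largest of each on autosomes, 4 per gene list by unadjusted p, the Z and W partners, and the 5 smallest interaction p. DMRT1, MIR7-1, MIR2131, HBAD and HBA1 were added after their values were seen. Birds, rule and lists were chosen with earlier results of these data known. Alternatives were other bird sets, bird number, bird block, a brightness filter, identical rows, scaling and the variance prior.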

Additional observations from a re-analysis of the deposited data

Results flagged for a closer look

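Single birds far from the other 7 of their group were found in 11 of 262 groups of values of named genes (4.2%), where chance gives about 5%. Among genes that passed, comfrey male replicate 2 read 4.60 for 1 probe set of LOC427025 (others 3.86 to 4.14), and comfrey female replicate 3 read 5.12 for another (others 5.67 to 6.11). Comfrey male replicate 6 read 4.75 for ATP5F1AW (others 5.51 to 5.90), and comfrey male replicate 4 read 8.08 for PTCD2 (others 7.59 to 7.81). Comfrey male replicate 1 was low for USP25 at 7.68 (others 8.38 to 9.00) and for ZDHHC20 at 7.44 (others 7.99 to 8.42), both genes lower in males. Comfrey male replicate 3 read 10.32 for RPL23A (others 10.57 to 10.79).

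Among genes that did not pass, comfrey male replicate 7 was high for 2 B cell genes, the transcription factor EBF1 at 7.19 (others 5.94 to 6.28) and the chemokine receptor CXCR5 at 8.09 (others 6.84 to 7.18). Comfrey female replicate 4 read 6.66 for the cytokine receptor IL4R (others 7.13 to 7.43), and comfrey female replicate 5 read 2.14 for GSTK1 (others 3.66 to 4.95).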

How the results depend on the processing

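The direction held for all 70 named genes that passed, in every alternative run, but each run reused birds that chose these genes. Counts moved most in fits of 4 birds per sex. In birds 1 to 16 alone, 169 probe sets passed in all, 66 on Z and 5 on autosomes, and in birds 17 to 32 alone 379 passed in all, 134 on Z and 48 on autosomes, and the brighter Z-linked median was 0.65. Without single birds the total ran from 460 to 568, Z-linked calls from 160 to 181, the brighter Z-linked median from 0.56 to 0.60, autosomal calls from 63 to 129 and interaction calls from 0 to 1. The 1 interaction call, in a probe set with no symbol, came without comfrey male replicate 8. Under the other fits, filters and scalings the total ran from 450 to 581, autosomal calls from 94 to 134 and Z-linked calls from 157 to 188. The median of all probe sets moved by under 0.1 under each scaling.

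Sign turned 20 times in 12 named genes, none of which passed. In birds 1 to 16 alone these were LOC426615 at 0.11, LOC425347 at -0.0024, LOC427010 at -0.65, ZNF532 at 0.042, JCHAIN at 0.023, IRF8 at -0.091, MERTK at 0.12, IL12RB2 at -0.099, IFITM5 at 0.095 and CD1B at 0.072. In birds 17 to 32 alone they were MBD2 at -0.089 and CD2 at -0.032. Without single birds, LOC425347 ran from -0.034 to 0.088, ZNF532 from -0.25 to 0.043, LOC426615 from -0.093 to 0.0056, LOC427010 from -0.012 to 0.36 and IL12RB2 from -0.0026 to 0.17. The cause was not tested. No paired analysis was possible because each bird carries a number of its own and the groups share none. The number of arrays limits the precision.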
